A study of Mus musculus with 2 samples.

Results

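The 10 genes described here encode the parts of the mouse MHC class II pathway that are carried by H2-Aa, H2-Ab1, H2-Eb1, H2-Oa, H2-Ob, H2-DMa, H2-DMb1, H2-DMb2, the invariant chain gene Cd74 and Ciita. They were taken as every spot that is not a control and carries one of these gene names in the scanner output, which gave 11 spots of 43020 on each array and 10 of 31710 gene names. Each gene had 1 probe printed at 1 spot, except H2-Ob, which had 2 probes. RNA came from parental Ba/F3 cells, an interleukin-3-dependent pro-B line of the mouse, and from BaF/3 (#BEB1), a single Ecrg4-binding clone. This clone was sorted from Ba/F3 cells that carried a retroviral cDNA library of rat CG4 cells, an oligodendrocyte precursor line, so that clonal selection, the virus and the library separate the cell lines as well as the binding of Ecrg4. Both lines were kept in medium with serum and interleukin-3, no other agent is named in the labels, and each line was hybridised to 1 array of a shared slide. No difference therefore has a replicate check, no test was run, and precision is limited by how few arrays there are.

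MHC class II molecules are pairs of an α and a β chain that display peptides from endosomes to CD4 T cells. The invariant chain binds new pairs in the endoplasmic reticulum, fills their groove and takes them to endosomes, where it is cut down to a short peptide. H2-M, made of an H2-DMa chain and an H2-DMb chain, exchanges this peptide for others, and H2-O, made of H2-Oa and H2-Ob, restrains H2-M, mainly in B cells. Ciita does not bind DNA itself. It is recruited by factors that sit on the X and Y boxes of these promoters, and it is the switch that sets where class II is made. Early B-lineage cells hold little surface class II, and their level rises as B cells mature.

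Which array belongs to which cell line differs between the authors' table of normalised values and the scanner output. Over 39429 probes (probes of an array are not replicates), the parental column of the table reached a Pearson correlation of 0.999998 with the BaF/3 (#BEB1) scanner signal, against 0.982285 with the parental one. The table's BaF/3 (#BEB1) column reached 0.999996 with the parental scanner signal, against 0.982286 with its own. Array A denotes the array listed as BaF/3 (#BEB1) in the table and as the parental cells in the scanner output, and array B denotes the other. A positive difference is higher on array A, which means higher in BaF/3 (#BEB1) by the table and higher in the parental cells by the scanner output. Olr1, which encodes the Ecrg4-binding receptor LOX-1, had a log2 difference of 5.01 towards array A. The study states from its microarray that Olr1 was higher in BaF/3 (#BEB1), the direction that the table gives. That statement rests on these arrays and is no outside check of the assignment. The study also cloned LOX-1 from a library made of BaF/3 (#BEB1) RNA. The assignment was not settled here from values.

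The signal had a 75th percentile of 1506 on array A (49.4% of probes well above background) and 1080 on array B (49.9%). Well above background is a mark that the scanner software sets for each spot. No spot was saturated. A level below is the log2 of a signal over the 75th percentile of its array, and a difference is the level on array A minus that on array B. A gene is called measured when a probe of it was well above background on both arrays. Among 399 probes printed at 10 spots, the 211 that were well above background at every spot had a median log2 SD between spots of 0.06 (array A) and 0.05 (array B), a spread within an array and not between cultures.

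Of the 10 genes, 5 were measured, namely Cd74, H2-DMa, H2-DMb1, H2-Oa and H2-Ob, beside 46.7% of all gene names on the array. The other 5, H2-Aa, H2-Ab1, H2-Eb1, H2-DMb2 and Ciita, were well above background on neither array. Past 2-fold towards array A lay 1 member, Cd74, beside 3.85% of all measured genes. Past 2-fold towards array B lay 3 members, H2-Ob, H2-DMa and H2-Oa, beside 7.3% of all measured genes. H2-DMb1 was also higher on array B but by less than 2-fold. The median difference of the 5 measured members was −1.11, and that of all 14813 measured genes was −0.02. With each array scaled to its median, every difference moved by 0.29 towards array A, which turned the 570 genes past 2-fold towards array A and 1082 towards array B into 1312 and 587 and left H2-Ob alone past 2-fold towards array B. The distance of a member from the median gene did not change under that scaling. In RNA from a whole culture, fewer cells that express a gene and less RNA of it per cell cannot be told apart.

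**Figure D1:**
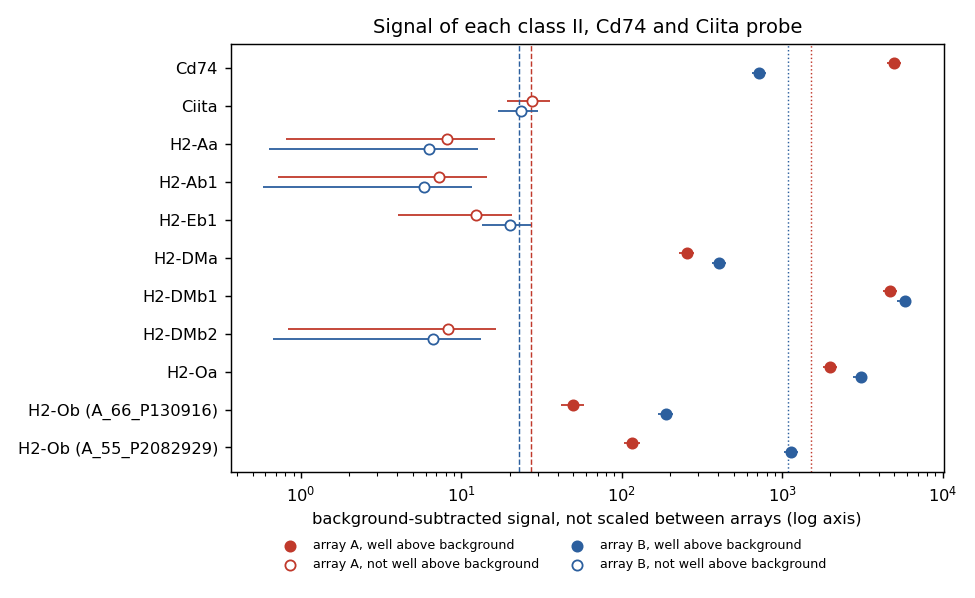
Background-subtracted signal of each of the 11 probes on a log axis, not scaled between arrays, for array A (red) and array B (blue). Filled points were well above background and open points were not, bars are the error that the scanner software gives for the spot (cut short at the low end where they would reach zero), dashed lines are the lowest signal of a probe well above background on each array, and dotted lines are the 75th percentiles. The 6 probes of the 5 measured genes lie right of the dashed lines, and among these only the probe for Cd74 has array A to the right of array B. The probe of Ciita also lies just right of the lines, although it was not marked well above background.

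Cd74, the invariant chain, had a signal of 5012 ± 501 on array A against 720 ± 72.2 on array B, where the error is the scanner software's estimate for the spot. Array A was the brighter one by far more than the spot errors. The levels were 1.73 and −0.59, a difference of 2.32 with a spot error of 0.20, or 4.99-fold. Without any scaling, the log2 ratio of the signals was 2.80. The unscaled ratios of the other measured members were −2.60 for H2-Ob, −0.63 for H2-Oa, −0.68 for H2-DMa and −0.30 for H2-DMb1. The 75th percentile of array A was higher than that of array B by a log2 of 0.48. Among the 14813 measured genes, Cd74 ranked at place 63 towards array A, and 145 genes lay at least as far from 0 in either direction. Its probe lies in mm9 on chromosome 18 from 60972075 to 60972132 on the plus strand, on another chromosome than the class II genes. Between the scaling and background settings that were tried, its difference ran from 2.24 to 2.61.

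**Figure D2:**
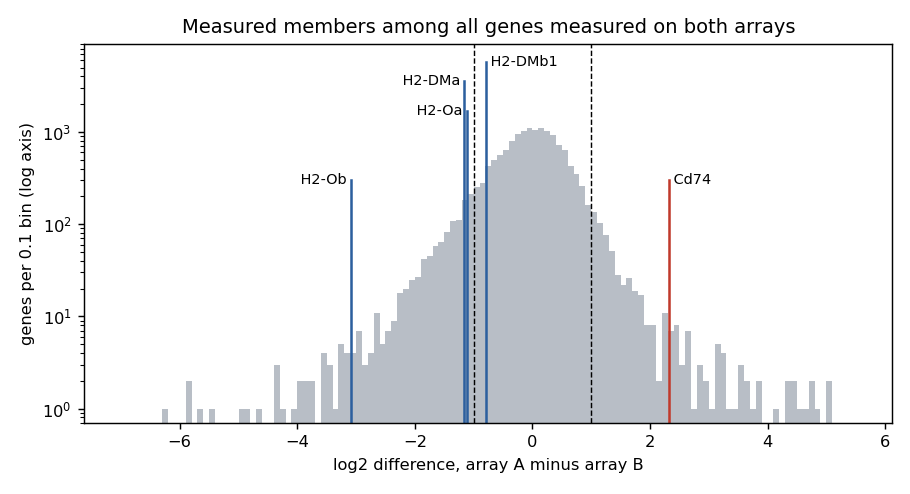
Distribution of the log2 difference, array A minus array B, over the 14813 measured genes in bins of 0.1, with the number of genes on a log axis. Vertical lines mark the 5 measured members (red towards array A, blue towards array B), their heights being set for legibility, and dashed lines mark 2-fold. Cd74 at 2.32 and H2-Ob at −3.08 lie in the tails, and H2-DMa, H2-Oa and H2-DMb1 lie on the left shoulder.

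H2-Ob, the β chain of H2-O, had the lowest difference of the measured members, and both of its probes were higher on array B. The probe A_55_P2082929 had a signal of 116 ± 13.4 on array A against 1133 ± 113 on array B. This is a difference of −3.76 with a spot error of 0.22, or 13.6-fold. The probe A_66_P130916 had a signal of 49.96 ± 8.26 on array A against 188 ± 19.6 on array B. Its difference was −2.39 with a spot error of 0.28, or 5.26-fold, so the probes shared a direction and differed in size. The mean over both was −3.08 with a spot error of 0.18, or 8.45-fold. H2-Ob ranked at place 38 towards array B, and 69 measured genes lay at least as far from 0 in either direction. Normexp, a background correction that fits signal and background together and adds an offset, gave −2.26 for H2-Ob, the value nearest to 0 of those tried.

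The probes of H2-Ob and of its partner H2-Oa are shown because the size of the H2-Ob difference depended on the probe. The first probe of H2-Ob (chr17:34382790-34382849, mm9, plus strand) is given by its first 30 bases. The second is given whole, and its 60 bases span 369 bases of the genome from chr17:34380481-34380849, so that it crosses at least 1 intron. The probe of H2-Oa (chr17:34232033-34232092, plus strand) is given by its first 30 bases. All run 5′ to 3′, and no letters are in capitals as no part of a probe was singled out.
H2-Ob, A_55_P2082929: gtcttgaatggtctcaacatttgttctaca
H2-Ob, A_66_P130916: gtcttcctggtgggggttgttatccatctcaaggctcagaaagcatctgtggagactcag
H2-Oa, A_51_P449325: gtgttgacctcgagtggcatcaacctctgt

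H2-Oa, the α chain that pairs with H2-Ob, had a signal of 1990 ± 199 on array A against 3087 ± 309 on array B. The levels were 0.40 and 1.51, a difference of −1.11 with a spot error of 0.20, or 2.16-fold higher on array B. It ranked at place 850 towards array B. The partner chains of H2-O thus lay on the same side, with a gap of 1.97 between their differences. H2-Oa lay at −0.82 with median scaling and from −1.004 to −1.19 with the other scalings and background corrections.

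H2-DMa, the α chain of the peptide exchanger H2-M, had a signal of 254 ± 26.2 on array A against 406 ± 40.9 on array B. Its levels were −2.57 and −1.41, which gives −1.16 with a spot error of 0.21, or 2.23-fold higher on array B, at place 767 in that direction. H2-DMb1, a β chain of H2-M, had a signal of 4704 ± 470 on array A against 5808 ± 581 on array B. Its levels were 1.64 and 2.43, a difference of −0.78 with a spot error of 0.20, or 1.72-fold higher on array B, at place 1685. H2-DMb2, the second gene for a β chain of H2-M, had a signal of 8.29 ± 8.26 on array A against 6.67 ± 6.66 on array B. Its errors were nearly as large as the signals. H2-Ob aside, the differences of H2-DMa, H2-DMb1 and H2-Oa lay within 0.37 of each other.

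The probes of H2-M are shown because H2-DMb1 and H2-DMb2 are close relatives and only H2-DMb1 was measured. Their 60-base probes have no shared run longer than 5 bases. The probe of H2-DMa is given whole, as its 60 bases span 564 bases of the genome from chr17:34274300-34274863 in mm9 and cross at least 1 intron. Those of H2-DMb1 (chr17:34297109-34297168) and H2-DMb2 (chr17:34284764-34284823) are given by their first 30 bases, all on the plus strand and 5′ to 3′.
H2-DMa, A_51_P473734: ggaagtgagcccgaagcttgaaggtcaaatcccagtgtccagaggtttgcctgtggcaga
H2-DMb1, A_51_P278868: tccttgtcacgagggcaccgtgtcttaggt
H2-DMb2, A_52_P1391: taatttcaaatatcctcaacgaacaggaga

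The chains that present peptide gave no signal well above background. H2-Aa, the α chain of H2-A, was at 8.10 ± 8.06 on array A against 6.32 ± 6.30 on array B. H2-Ab1, its β chain, was at 7.22 ± 7.20 on array A against 5.81 ± 5.79 on array B. For both genes the error was nearly the signal itself on each array, and the software did not call the spots above background. H2-Eb1, the β chain of H2-E, was at 12.3 ± 8.28 on array A against 20.2 ± 6.84 on array B, where the software called it above background but not well above it. The lowest signal of a probe well above background was 27.1 on array A against 22.9 on array B, so the 3 genes were below it on both arrays and no fold is given. H2-Ea, the α chain of H2-E, and H2-Eb2, a further β chain gene, are not members and were well above background on neither array.

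The probes of these 3 genes are shown because a gene that is not detected rests on what its probe reads. Each is given by its first 30 bases, 5′ to 3′. The probe of H2-Aa (chr17:34421285-34421344, mm9) lies on the minus strand, and those of H2-Ab1 (chr17:34406296-34406355) and H2-Eb1 (chr17:34453075-34453134) lie on the plus strand. The probe of H2-Ab1 shares a run of at least 20 bases with that of LOC641240, a further gene name in the scanner output at the same place, which was well above background on neither array.
H2-Aa, A_52_P343306: tttggccaattggcaagctttgacccccaa
H2-Ab1, A_55_P1962747: tagtaaaccaatgtatgcttatccccacct
H2-Eb1, A_55_P2156731: ggcacttctgagccagtctgctgtcatatg

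Ciita, the coactivator of class II transcription, had a signal of 27.5 ± 8.08 on array A against 23.5 ± 6.49 on array B. The software called both spots above background but not well above it, and the errors of the arrays overlap. The probe lies on chromosome 16 from 10526568 to 10526627 in mm9 and has bases in common with 3 other probes, a run of at least 20 with each. A pair of further probes on the array carry the name Gm9475 in the scanner output, which the RefSeq gene table lists as an older name of Ciita. The probe A_55_P2143641, from 10491091 to 10491150 on chromosome 16, had a signal of 32.3 ± 6.33 on array A against 45.5 ± 6.503 on array B and was well above background on both, a difference of −0.97. The probe A_55_P2035003 had a signal of 5.42 on array A against 4.63 on array B and was not well above background. Counted with these probes, 6 of the 10 genes were measured, and the probes of Ciita disagreed on whether it was.

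Promoters of 7 of the 10 genes were taken from a RefSeq table of the GRCm38.p6 build, with H2-DMa holding a pair of them. None was found under the names H2-Ab1 and Ciita. Cd74, the measured member higher on array A, was left out, so the member counts below do not cover it. Each promoter covers 250 bases before to 50 bases after a transcript's start. The core of the X box, searched as AGNAAC, and the Y box, searched as ATTGG, were looked for on both strands, and this pair of motifs was chosen after the promoters had been read. The counts below are per gene, over 8 promoters of members in all, while the shares beside them are per promoter. ATTGG was present in a promoter of all 7 genes, beside 37.4% of 32851 promoters. One of the promoters of H2-DMa held neither motif. AGNAAC was present in a promoter of H2-DMa, H2-DMb1, H2-Eb1, H2-Oa and H2-Ob, beside 48.1% of all promoters. Both on the same strand, with AGNAAC first and its start 25 to 45 bases before that of ATTGG, were found in 4 of the 7 genes and in 1.14% of all promoters, or 376. These 4 were H2-DMb1, H2-Eb1, H2-Oa and H2-Ob, of which H2-Eb1 was measured on neither array. H2-DMa, which was higher on array B, held the motifs at that spacing in neither of its promoters. A match is a run of letters and was not tested as a binding site.

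The stretches that hold both motifs are shown to set those of H2-DMb1, H2-Oa and H2-Ob, which were higher on array B, beside that of H2-Eb1. Capitals mark AGNAAC and ATTGG, the coordinates are GRCm38.p6 and differ from the mm9 coordinates of the probes, and all lie on the plus strand. The starts of the motifs lie 34 bases apart in H2-DMb1 and H2-Oa, 33 in H2-Eb1 and 31 in H2-Ob.
H2-DMb1, chr17:34153090-34153140: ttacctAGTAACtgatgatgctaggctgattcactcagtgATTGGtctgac
H2-Oa, chr17:34092296-34092346: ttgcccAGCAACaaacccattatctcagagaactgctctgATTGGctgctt
H2-Ob, chr17:34238811-34238858: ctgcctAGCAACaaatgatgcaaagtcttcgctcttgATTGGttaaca
H2-Eb1, chr17:34305769-34305818: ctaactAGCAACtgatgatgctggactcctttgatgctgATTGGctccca

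The factors that sit on these boxes are encoded by Rfx5, Rfxap and Rfxank, which form RFX, by Nfya, Nfyb and Nfyc, which form NF-Y, and by Creb1. Of the 7, 6 were measured and 0 were at least 2-fold apart in either direction, with a median of 0.33. The values were 0.04 for Rfxank, 0.27 for Rfxap, 0.70 for Nfya, 0.39 for Nfyb, 0.16 for Nfyc and 0.68 for Creb1, all higher on array A, although Rfxank lay at −0.04 when the scaling percentile was taken over probes well above background and at −0.0047 with normexp. Rfx5 passed the background mark on array A alone, with a signal of 61.5 there against 21.4 on array B. It was brighter on array A by at least 1.93-fold, while with normexp this bound was a log2 of 0.14. The partner genes of Ciita on the promoter thus lay, Rfxank aside, on the other side of 0 from H2-Ob, H2-Oa, H2-DMa and H2-DMb1.

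Of 14 genes that act on Ciita, among them the interferon-γ receptor, its kinases and the factors of the Ciita promoters, 9 were measured and 0 were at least 2-fold apart in either direction, with a median of −0.19 and a range from −0.91 to 0.75. Irf8, a factor of B cells and dendritic cells that acts on a Ciita promoter, passed the background mark on array B alone, with a signal of 20.1 on array A against 79.3 on array B. It was at least 4.09-fold higher there, and with normexp this bound was a log2 of −0.94. Irf4, Pax5 and Prdm1 were well above background on neither array.

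**Figure D3:**
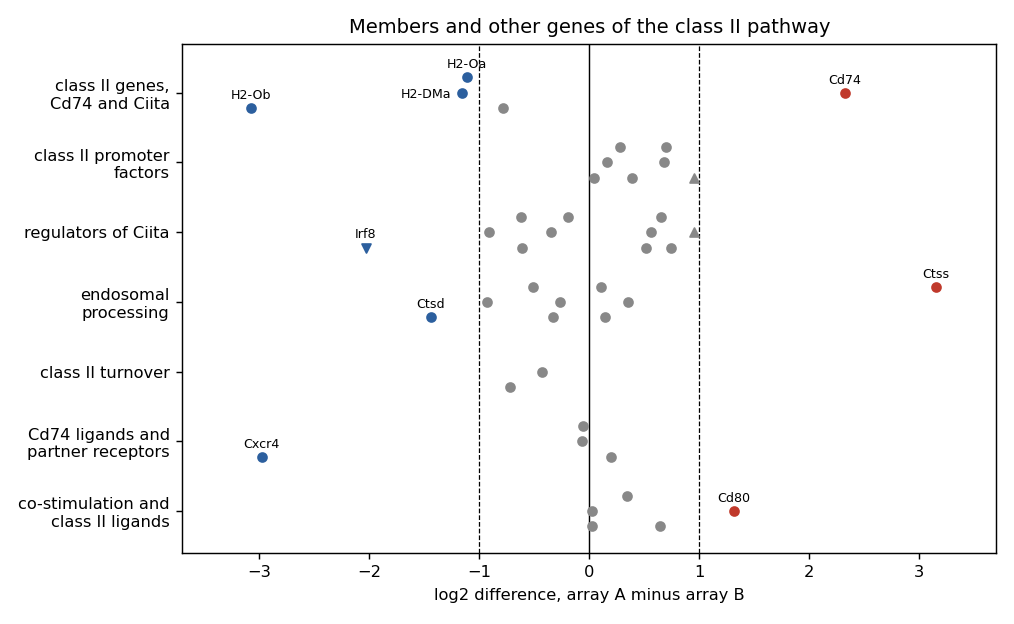
Difference (log2, array A minus array B) of each measured gene in the members and in 6 lists of other class II pathway genes, with dashed lines at 2-fold. Circles were well above background on both arrays, triangles on a single array and show a bound (pointing up for array A, down for array B), and colours mark genes past 2-fold towards array A (red) or array B (blue). Vertical offsets within a list only separate points, and H2-Ob (−3.08), Cxcr4 (−2.98), Cd74 (2.32) and Ctss (3.15) stand farthest from 0.

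Of 11 endosomal processing genes, 9 were measured, 1 was past 2-fold towards each array, and the median was −0.27. Ctss, the cathepsin that makes the last cuts in the invariant chain, had a signal of 6626 on array A against 536 on array B, a difference of 3.15 or 8.87-fold. Ctss and Cd74 were thus both higher on array A. Ctsd, an aspartic protease of lysosomes, had a difference of −1.44 over its 2 probes and of −0.99 by its brighter probe.

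Of 6 genes for ligands and partner receptors of Cd74, 4 were measured. Mif, a ligand of Cd74, had a difference of 0.20, and its relative Ddt had −0.07. Cd44, a partner that passes the signal on, had −0.06, and the signs of Ddt and Cd44 turned with median scaling. Cxcr4, a chemokine receptor that pairs with Cd74, had a signal of 291 on array A against 1649 on array B, a difference of −2.98 or 7.89-fold higher on array B. Cxcr2 and Ackr3 were well above background on neither array. Cd74 and Cxcr4 thus lay on opposite sides.

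Of 8 co-stimulation genes and ligands of class II, 5 were measured with a median of 0.35, and 1 was past 2-fold, towards array A. It was Cd80, which gives T cells a second signal, at 1.31 or 2.48-fold. Of 3 genes for class II turnover, 2 were measured, at −0.43 for Marchf1 and −0.72 for Marchf8, ubiquitin ligases that act on class II molecules and co-stimulatory proteins. Over all 6 lists, 35 of 49 genes were measured, with a median of 0.04. Of these, 2 were past 2-fold towards array A and 2 towards array B, beside 3.85% and 7.3% of all measured genes.

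The 8 class II genes with an H2 name lie together on chromosome 17. From 34132033 to 34553134 in mm9, a window that adds 100 kb on each side of the outermost H2 members, the array has probes for 22 further genes, of which 11 were measured. The measured ones had a median of −0.21. Of these, 0 were past 2-fold towards array A and 1 towards array B, beside 3.85% and 7.3% of all measured genes. That gene was Tap2, a subunit of the peptide transporter for class I, at −1.38 or 2.60-fold higher on array B. Tap1, its partner, lay at −0.94, and the immunoproteasome subunits Psmb9 and Psmb8 lay at −0.76 and −0.71, all between H2-DMb1 and H2-Ob on the chromosome and named here after their values were seen. Brd2, between H2-Oa and H2-DMa, lay above 0 at 0.11, and from 0.02 to 0.40 over the scalings and background corrections. The 6 genes beyond H2-Oa that were measured lay from −0.48 for H2-Ke6 to 0.29 for Slc39a7. Of these, Col11a2, Rxrb and H2-K1 changed sign between scalings. BC051537, which lies in the same stretch next to H2-Oa, passed the background mark on array B alone, with a signal of 12.8 on array A against 264 on array B, and was at least 13.6-fold higher there, with −2.33 under normexp.

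**Figure D4:**
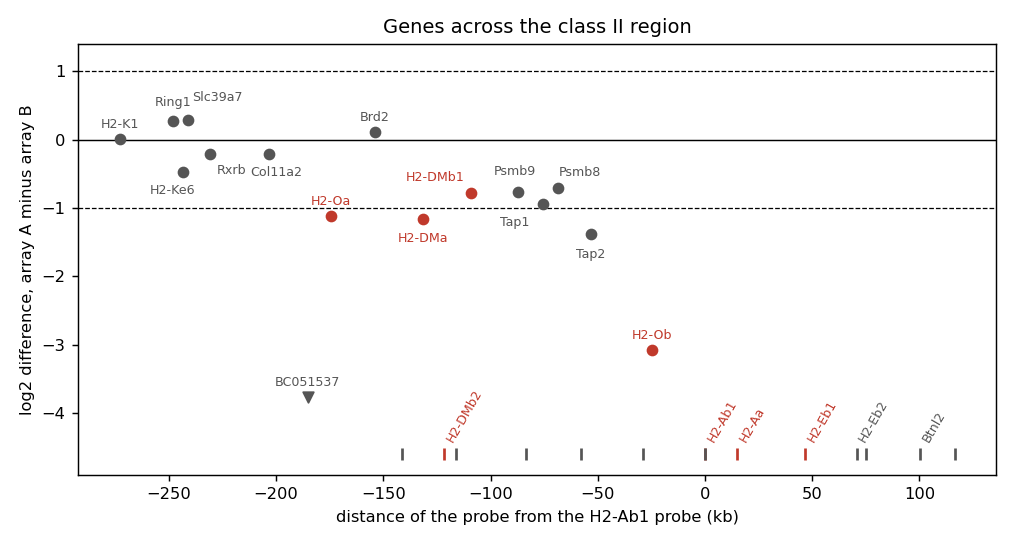
Difference (log2, array A minus array B) of the genes across the class II region against the distance of their probes from the probe of H2-Ab1 in kb, members in red and other genes in grey, with dashed lines at 2-fold. Circles were measured on both arrays, the triangle is a bound for a gene well above background on array B only, and ticks along the bottom are genes well above background on neither array. The measured members and the measured genes from Psmb9 to Tap2 lie below 0, while Brd2, between H2-Oa and H2-DMa, lies just above 0. Nothing to the right of H2-Ob was measured.

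Markers of cells that make class II were read as whole lists. Of 7 conventional dendritic cell markers, only Ccr7 was measured (−0.65), Cd209a was well above background on array B only, and Flt3, Itgax, Zbtb46, Xcr1 and Clec9a were not well above background, while the summed signal was 27.0% of the 75th percentile on array A against 41.2% on array B. Of 7 macrophage and monocyte markers, 3 were measured, Fcgr1 at 2.23, Adgre1 at 0.90 and Csf1r at −0.46. The sums were 685% on array A, most of it from Fcgr1, and 235% on array B. Lyz2 was well above background on array B only, and Cd14 and Mertk on neither array. All 3 plasmacytoid dendritic cell markers were measured with none past 2-fold, at sums of 6068% and 7110%, most of each from Siglech.

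Of the 9 B-lineage markers, Igll1 had no probe of that name, Cd79b (−2.30) and Vpreb1 (−1.39) were measured and higher on array B as H2-Ob was, and Cd79a, Ms4a1, Pax5, Ebf1 and Blnk were well above background on neither array. The sums were 36.1% on array A against 153% on array B, most of each from Cd79b. Thus several defining markers of B cells were not detected in RNA labelled as a pro-B cell line. The interleukin-3 receptor genes Il3ra (0.40), Csf2rb (−1.86) and Csf2rb2 (−1.60) and the leukocyte gene Ptprc (0.75) were measured. Of these, Csf2rb and Csf2rb2 were past 2-fold, towards array B. Of 6 mast cell and basophil markers, Cpa3 (−5.44) was higher on array B and Hdc (1.67) on array A. Fcer1a passed the background mark on array B alone, with a signal of 6.80 on array A against 904 on array B. It was at least 46.6-fold higher there. Kit, Ms4a2 and Mcpt8 passed the mark on neither array. The sums were 196% on array A, most of it from Hdc, and 633% on array B, most of it from Cpa3. The 4 T cell markers summed to 99.5% and 96.5%, with Cd3e (0.22) and Cd4 (0.03) measured and Cd8a well above background on neither array. The part of any of these cell types in the differences of the class II genes was not tested.

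**Figure D5:**
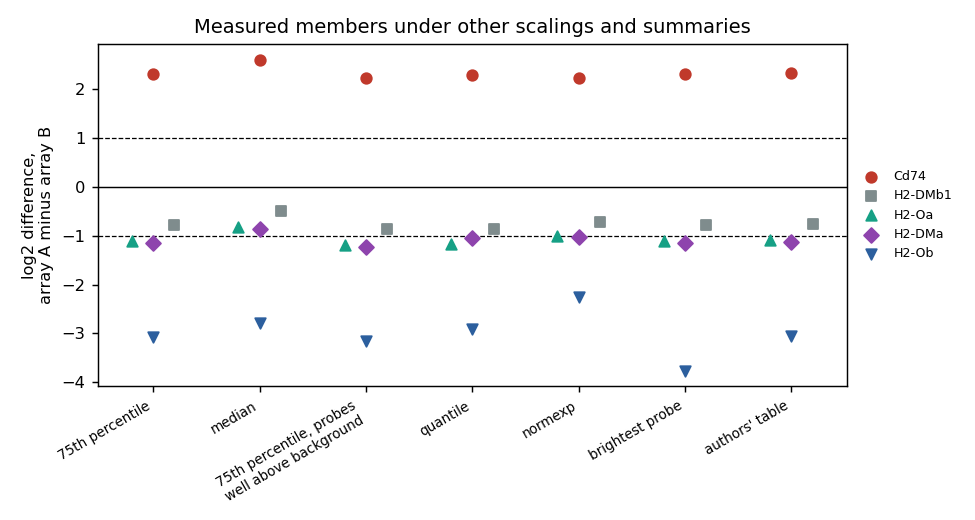
Difference (log2, array A minus array B) of the 5 measured members under the main scaling (75th percentile), other scalings, normexp background correction, the brightest probe and the authors' table, with dashed lines at 2-fold and H2-Oa and H2-DMb1 drawn beside their position for legibility. Cd74 stayed between 2.24 and 2.61 and H2-Ob between −3.76 and −2.26, while H2-DMa and H2-Oa crossed the 2-fold line with median scaling.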

How the data were processed

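The authors amplified total RNA, labelled it with cyanine 3 and hybridised it to Agilent whole mouse genome arrays. Per the labels, Agilent Feature Extraction 9.5.1.1 gave the deposited intensity of each spot with background subtracted, and the scanner output gives each spot's error. The authors' table holds log2 values, made by raising intensities under 1 to 1, scaling every array to its own 75th percentile and taking log2. The same steps were repeated here from the deposited intensity of 43020 spots that are not controls.

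Spots of a probe were averaged, and a gene with several probes took the mean of those that both arrays read well above background. A RefSeq gene table named 26055 of 39429 probes through their accession, 3195 through their symbol and 930 through an earlier symbol. The file's own name stood for 9249 probes. Members were picked by the file's own name, and the accession gave all 11 of their probes that same name. The probes named Gm9475 kept the file's name in the main setting. A bound sets a gene well above background on a single array against the higher of its own signal on the other array and that array's detection limit, which is the dimmest signal well above background (27.1 on array A, 22.9 on array B). The background correction moves low signals most, and scaling to a percentile moves all log2 values of an array alike.

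With 1 array per cell line there was no test, and genes at least 2-fold apart are counted as sizes. All members were named, as were all promoter factors and Cd74 partners, up to 6 genes at least 2-fold apart per list, and others as said beside them. The members, lists and motifs were chosen with earlier results of these data known. Alternatives were median scaling, the 75th percentile over well-detected probes, quantile scaling, normexp with an offset of 50, a floor of 5, a dim-probe filter that was looser or left out, outlier spots left out, the brightest probe or the median over probes, members found by accession, the authors' table and a 3-fold threshold. The steps were tested on simulated data. Values were computed in Python 3.11.15 (numpy 2.4.6, pandas 2.3.3, matplotlib 3.10.9) and, for normexp and quantile scaling, in R 4.3.3 (limma 3.58.1). Probe coordinates are those of the scanner output in mm9, and exon or UTR positions were not looked up. Some genes of the other lists are not reported here.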

Additional observations from a re-analysis of the deposited data

How the results depend on the processing

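No measured member changed sign under any alternative. The number of members at least 2-fold higher on array B, 3 in the main setting, was 1 with median scaling and 1 at a 3-fold threshold. The other lists held few genes. Class II region genes past 2-fold towards array B, 1 in the main setting, came to 2 with the 75th percentile over well-detected probes, 2 with the looser filter on dim probes, 4 with no filter and 0 at a 3-fold threshold. Companion list genes higher on array A, 2 in the main setting, came to 4 with the looser filter, 5 with no filter and 1 at 3-fold, and those higher on array B, also 2, came to 4 with no filter, 1 with the brightest probe and 1 at 3-fold. The other 66 of these counts were within 1.5 times the main count. Of all 14813 measured genes, 385 and 707 were at least 2-fold higher on arrays A and B with normexp, and 156 and 333 were past 3-fold. The looser filter took in 16511 genes, of which 1133 (6.9%) and 1875 (11.4%) passed 2-fold. No filter took in all 31710, of which 1491 (4.7%) and 2777 (8.8%) passed. Scaling to the median or to another percentile moves every gene by the same amount, and the cause of the other shifts was not tested. With members found by accession, Ciita was measured at −0.97. No paired analysis was possible because there was 1 array per cell line. No order between arrays is read for the 5 genes well above background on neither array.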
